A study of Mus musculus with 18 samples.

Results

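The genes described here are the 35 that make, take up, store and export cholesterol in the liver of mice, chosen by name for their known roles. No measured value enters the rule, but the choice was made with earlier results of these data known. They are 35 of the 21153 genes named on the array, and their 46 probes are among 39429 distinct probes. The members were sorted by role into 19 enzymes of sterol synthesis, 7 genes of uptake and intracellular transport, 3 enzymes of esterification and storage, and 6 genes of export and lipoprotein remodelling. All 35 passed the filter on dim probes, which kept 19608 named genes, so no member was lost to low signal. A single probe represented 24 members, and 11 had 2 probes, of which the brighter was read. The other is given where it differed in its call or for a gene described in detail.

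Total liver RNA of 18 male C57BL/6 mice was hybridised with Cy3 label, 1 mouse per Agilent array. Mice of the LFD groups (low-fat diet) received 10% of their energy as fat and mice of the HFD groups (high-fat diet) 60%, starting at 6 weeks of age. After 10 weeks of feeding, the MTX50 groups were given methotrexate, an inhibitor of dihydrofolate reductase, at 50 mg/kg by intraperitoneal injection in 5 rounds, and livers were taken 1 week after the last. There were 4 untreated mice per diet (LFD and HFD) and 5 treated ones per diet (LFD MTX50 and HFD MTX50), of the same strain and sex, and the untreated groups received no methotrexate. The titles number the mice of a group as separate replicates. The diet comparison (HFD vs LFD) asks what the high-fat diet changed in untreated mice. The treatment comparisons ask what methotrexate changed in HFD-fed mice (HFD MTX50 vs HFD) and in LFD-fed mice (LFD MTX50 vs LFD), and whether these effects differed.

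Cholesterol is built from acetyl-CoA by way of mevalonate, squalene and lanosterol, and most enzymes of this route are transcribed under the control of the sterol-sensing factor SREBP2, which is released when sterols in the endoplasmic reticulum run low. Hepatocytes also take cholesterol up from lipoproteins, esterify what they do not need, pass it to apolipoproteins through ABC transporters and secrete it into bile. The liver is the main organ for each of these tasks.

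All values are levels on the log2 scale, the intensity of the probe relative to the 75th percentile of its array, so that a level can be compared between mice for a given probe but not between probes. A difference is a difference of group means on that scale, a gene was called when the limma adjusted p over all 35746 probes kept was below 0.05, and ± marks the SD of a level or the standard error (SE) of a difference. Between 84.2 and 90.8% of the spots of an array were well above background. The LFD arrays filled a slide of their own and the LFD MTX50 arrays lay on 2 others, and so, whenever LFD was compared, slide and group cannot be told apart. HFD mice 3 and 4 shared a slide with HFD MTX50 mice 1 and 2, and the difference within that slide is given as the shared-slide value. Since whole liver was measured, fewer cells of a type and less RNA per cell cannot be told apart.

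The hepatocyte markers (6 genes such as Cps1 and Fabp1) were strongly detected, with a summed log2 level between 8.31 and 9.08 over all mice. Markers of other cells moved between groups as well. Summed neutrophil markers (5 genes) reached 2.79 among LFD MTX50 mice and 5.63 among HFD MTX50 mice (lowest 0.12 and 0.23), against ranges of −0.01 to 0.38 for LFD and 0.03 to 1.05 for HFD. Summed Kupffer and macrophage markers (10 genes) lay between 5.85 and 6.37 in HFD MTX50 against 5.15 to 5.91 in HFD, and between 5.18 and 5.50 in LFD MTX50 against 5.56 to 6.05 in LFD. The latter order was that of 2 bright probes, Cd68 (−0.94) and Csf1r (−0.54), the only markers of the list called lower in LFD MTX50, while 6 of the 10 had a difference above 0 (median 0.29) and Trem2 was called higher (1.20, limma adjusted p 0.0474). The summed adipocyte markers (4 genes) were at 1.64 to 2.60 in HFD, −2.33 to −1.36 in LFD and −1.97 to 0.45 in HFD MTX50. This followed mainly Cfd (5.99 by diet and −5.32 in treated HFD-fed mice), and Adipoq and Retn were at −0.04 and −0.23 by diet. Plin1 was higher by diet (mean −5.06 in HFD, −5.70 in LFD). In HFD MTX50 against HFD, Adipoq (−3.62 and −4.50) and Retn (−2.72 and −3.15) were higher and Plin1 (−5.47 and −5.06) lower. Of the 4 markers, 1 was called higher there and 1 lower. Erythroid markers (3 of 5 genes tested) summed to 1.64 to 1.90 in LFD, −1.11 to 0.12 in LFD MTX50, 1.52 to 1.88 in HFD and −0.41 to 1.89 in HFD MTX50. In treated LFD-fed mice this was Alas2 alone (−2.99), with Slc4a1 at 0.29 and Epb42 at 0.15. In HFD MTX50 against HFD, the mean of Alas2 was lower (0.31 and 1.55) and that of Slc4a1 higher (−1.07 and −1.45). Epb42, well above background on 5 arrays, was higher too (−5.41 and −8.60). Stellate (3.68 to 4.44) and endothelial (3.09 to 3.83) sums covered overlapping ranges in all groups, but single markers moved. In HFD MTX50 vs HFD all 5 stellate markers were below 0 (median −0.38, 0 called). In treated LFD-fed mice 3 stellate markers were above 0, 2 below and 1 called higher, and 2 were called lower for the difference of the methotrexate effects. Of the 4 endothelial markers, 1 was called lower in HFD MTX50 vs HFD, where 3 were above 0. All 4 were above 0 in treated LFD-fed mice (0 called). The part of these cells in the results that follow was not tested.

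Few of the 35 members were called in any comparison. By diet, 6 of 35 (17.1%) were called, against 28.4% of the 19608 named genes tested. Soat1 was the only member that was higher, where 18% of all genes were called higher, and Ggps1, Npc2, Scarb1, Abca1 and Pltp were lower, where 10.4% of all genes were. In treated HFD-fed mice, 3 members (8.57%) rose, namely Ggps1, Scarb1 and Lcat, and 0 fell, against 10.9% of all genes called, 4.81% higher and 6.12% lower. In treated LFD-fed mice, Npc2, Soat1 and Lcat rose and Acat2 and Pltp fell, 5 of 35 or 14.3%, against 28.1% of all genes (17.6% higher and 10.5% lower). The difference between the methotrexate effects on the diets was called for Npc1l1 alone, or 2.86% of members, against 26.7% of all genes, 8.65% called higher and 18.1% lower. In each comparison the called share of members lay below that of all genes, by a narrow margin in treated HFD-fed mice (8.57% against 10.9%). The members also spread more within groups, with a median SD of 0.44 against 0.24 over all named genes. A wider spread makes a call harder to reach, and its part in these shares was not tested.

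**Figure D1:**
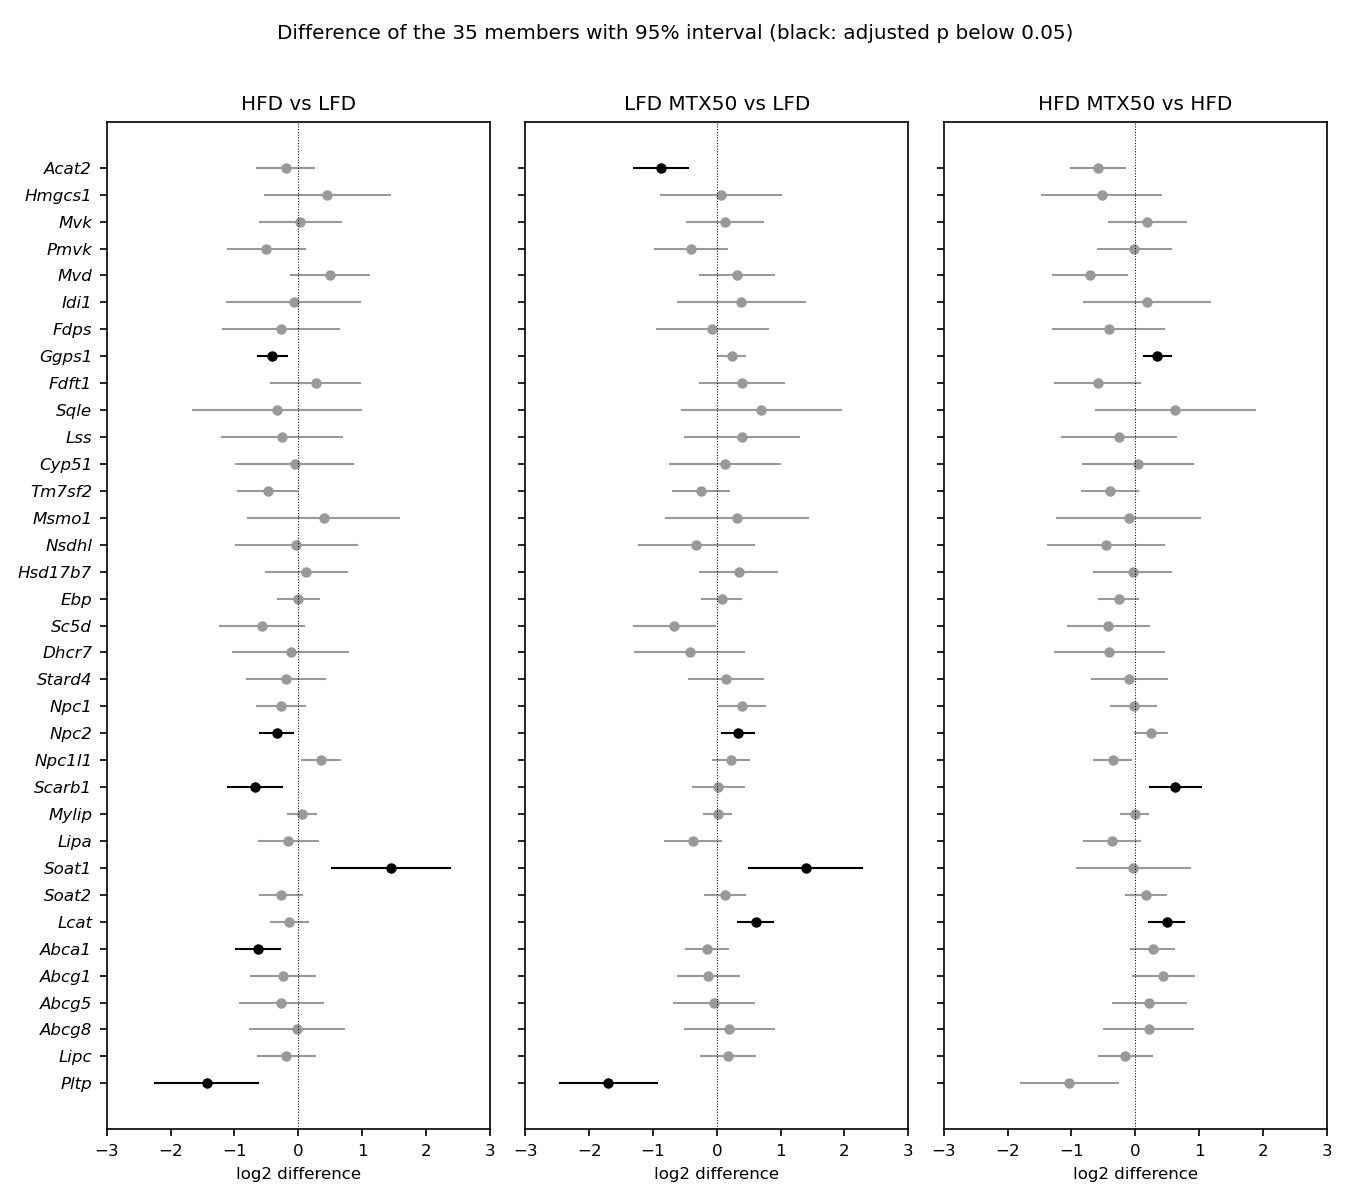
Difference in log2 level for each of the 35 members, in pathway order, in 3 comparisons, with its 95% interval from the limma fit. Black points are members with an adjusted p below 0.05, 6 by diet, 5 in treated LFD-fed mice and 3 in treated HFD-fed mice, and the widest intervals belong to enzymes of sterol synthesis such as Sqle.

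Of the 19 enzymes of sterol synthesis, only 1 (5.26%) was called in each of the 3 comparisons, Ggps1 by diet and by treatment of HFD-fed mice and Acat2 by treatment of LFD-fed mice, and for 0 was the difference between the methotrexate effects called by limma (2 had an unadjusted p below 0.05). Single enzymes were called for that difference in other settings, Fdft1 with the mean of its probes (−0.76, adjusted p 0.0255), Mvd with the filter on all arrays (−1.03, adjusted p 0.0489) and Ebp under quantile normalization (−0.57, adjusted p 0.0489). With the untreated groups fitted alone, Pmvk, Tm7sf2 and Sc5d were also called lower by diet, and Mvd higher (adjusted p 0.0106 to 0.0468). Their median difference was −0.07 by diet, −0.26 in treated HFD-fed mice and 0.13 in treated LFD-fed mice, beside medians of 0.08, −0.04 and 0.11 over all named genes. In treated HFD-fed mice 14 of the 19 were below 0. There the median less that of all genes was −0.22, and it was −0.37 under quantile normalization and −0.64 under normexp background correction. In treated LFD-fed mice the median turned to −0.05 under normexp, where that of all genes was 0.47. For the difference of the methotrexate effects it was −0.14 with 13 of 19 below 0, and −0.39 with 15 of 19 below 0 under quantile normalization, beside −0.11 and 0.00 over all genes. Intervals were wide, and for Sqle (squalene epoxidase, a rate-controlling oxygenase of the pathway) the 95% interval of the treatment effect in HFD-fed mice ran from −0.62 to 1.87.

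Acat2 encodes the cytosolic thiolase that joins acetyl-CoA units at the entry to the mevalonate route. It read 3.60, 3.56, 3.64 and 3.77 in the LFD mice and 2.73, 3.11, 2.62, 2.95 and 2.44 in the LFD MTX50 mice. In the HFD mice it read 3.56, 3.43, 3.29 and 3.48, and in the HFD MTX50 mice 2.40, 2.26, 2.94, 3.27 and 3.39. Every LFD MTX50 mouse was thus below every LFD mouse, whereas on the high-fat diet treated mouse 5 reached into the untreated range and mice 1 and 2 lay far under it. LFD MTX50 vs LFD was −0.87 ± 0.20 (SE), 1.83-fold lower, with a limma adjusted p of 0.00712 and an exact permutation p of 0.00794, the smallest that 5 mice against 4 allow. The call was kept under 12 of 13 alternatives and with any of the 18 mice left out, and was lost when slides were fitted as random effects (adjusted p 0.0625, the highest of a range that began at 0.00359). HFD MTX50 vs HFD was −0.59 ± 0.20 (limma adjusted p 0.0651), which was not called. Within the shared slide it was −1.05, and it was called when slides were fitted as fixed effects (adjusted p 0.00598), as random effects (−0.74, adjusted p 0.0271) and after quantile normalization (−0.72, adjusted p 0.0282).

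Ggps1 makes geranylgeranyl diphosphate, a lipid used for protein prenylation, and so sits on a branch that leaves the route to sterols. The LFD mice read −1.5, −1.5, −1.46 and −1.02 and the HFD mice −1.77, −1.68, −1.77 and −1.88. The LFD MTX50 mice read −1.14, −1.15, −1.24, −1.14 and −1.03 and the HFD MTX50 mice −1.29, −1.42, −1.56, −1.51 and −1.35. The HFD mice were the lowest of all 4 groups and overlapped with neither LFD nor HFD MTX50, and LFD mouse 4 stood well above the other LFD mice. HFD vs LFD was −0.40 ± 0.11 (1.32-fold lower, limma adjusted p 0.014, p by exact permutation 0.0286, the smallest for 4 against 4), and HFD MTX50 vs HFD was 0.35 ± 0.10 (1.27-fold higher, limma adjusted p 0.0392, p by exact permutation 0.00794, shared-slide value 0.47). The second probe was also called lower in HFD vs LFD (−0.38, adjusted p 0.0123) but not higher in HFD MTX50 vs HFD (0.18, adjusted p 0.197). The diet call was kept in 11 of 13 other settings (adjusted p 0.00526 to 0.997, the latter with a difference of 0.001 under normexp), and was lost without HFD mouse 4 (−0.37, adjusted p 0.0501). The treatment call was kept in 7 of 14 other settings (adjusted p 0.0216 to 0.381) and lost without LFD MTX50 mouse 2, HFD mouse 2, 3 or 4, or HFD MTX50 mouse 1 or 5 (adjusted p 0.0514 to 0.131).

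The remaining 17 enzymes were followed in the order of the pathway. Hmgcs1, which makes HMG-CoA, averaged 4.01 ± 0.35 (SD, n = 4) among LFD and 4.47 ± 0.46 (n = 4) among HFD mice, and 4.08 ± 1.08 and 3.95 ± 0.62 (n = 5 each) with methotrexate. Its second probe gave 0.06 in treated HFD-fed mice, where the brighter gave −0.53, and neither was called. The kinases Mvk and Pmvk and the decarboxylase Mvd, which turn mevalonate into isopentenyl diphosphate, had differences between −0.70 and 0.50 over the 3 comparisons. Over all mice Mvk ranged from 1.71 to 3.21. In treated HFD-fed mice its probes differed in sign (0.19 and −0.13), and those of Pmvk were at −0.01 and −0.39, none of them called. Mvd was at −0.70 in HFD MTX50 vs HFD (limma adjusted p 0.0953), where no treated mouse reached an untreated one, and at −1.03 for the difference between the methotrexate effects (adjusted p 0.057). Pmvk read 3.71 to 4.13 in LFD and 3.05 to 3.66 in HFD without overlap (−0.50 ± 0.28, limma adjusted p 0.188).

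Isomerisation by Idi1 and chain building by Fdps supply farnesyl diphosphate, from which Fdft1 makes squalene. None of the 3 was called, with differences from −0.59 (Fdft1, HFD MTX50 vs HFD, limma adjusted p 0.207) to 0.40 (Fdft1, LFD MTX50 vs LFD, adjusted p 0.344). The second Fdft1 probe gave −0.09 and 0.45 for the same comparisons. The range over all mice was 2.46 to 5.28 for Idi1 and 3.72 to 5.81 for Fdps, with both ends of the former and the upper end of the latter among LFD MTX50 mice. Sqle and Lss, which oxidise and close squalene into lanosterol, likewise were not called, and Sqle was at 0.63 in treated HFD-fed and 0.70 in treated LFD-fed mice (limma adjusted p 0.486 and 0.376).

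Lanosterol is trimmed to cholesterol by Cyp51, Tm7sf2, Msmo1, Nsdhl, Hsd17b7, Ebp, Sc5d and Dhcr7, and 0 of these 8 were called by limma in any comparison (at an unadjusted p below 0.05, 1 by diet, Tm7sf2, and 1 in treated LFD-fed mice, Sc5d). Their differences lay between −0.67 (Sc5d) and 0.40 (Msmo1). Cyp51, the lanosterol demethylase, was at −0.06 by diet, 0.05 in treated HFD-fed and 0.13 in treated LFD-fed mice. Sc5d, the desaturase before the last step, read 4.21 to 4.54 in LFD and 3.53 to 4.02 in HFD without overlap (−0.57 ± 0.31, limma adjusted p 0.175), and was at −0.67 ± 0.30 in LFD MTX50 vs LFD (adjusted p 0.0983). Msmo1 spread furthest over all mice, from 1.62 to 5.19, and Ebp least, from 3.17 to 3.97. Tm7sf2 ranged from 2.59 to 4.19, Nsdhl from −1.71 to 0.49 and Dhcr7 from −1.64 to 0.41. The second Nsdhl probe gave 0.10 in treated LFD-fed mice, where the brighter gave −0.32, and neither was called. The second probe of Hsd17b7 passed for the difference of the methotrexate effects (−0.94, adjusted p 0.0493), which its brighter probe did not (−0.38, adjusted p 0.49).

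The synthesis enzymes varied widely, and together, from mouse to mouse within a group. Their SD within groups had a median of 0.50, from 0.13 for Ggps1 to 0.96 for Sqle, while the median over all 19608 named genes was 0.24. Uptake genes had a median SD of 0.26, esterification 0.22 and export 0.39. By group, the median SD of the synthesis enzymes was 0.27 without and 0.76 with methotrexate on the low-fat diet, and 0.34 and 0.44 on the high-fat diet. It was larger with methotrexate for 18 of 19 enzymes on the low-fat diet and for 13 of 19 on the high-fat diet. These are descriptions, and enzymes that vary together are not independent of each other.

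Sqle, picked for its spread after the values had been seen, shows the size of this variation. In LFD it read 1.82, 1.82, 2.46 and 1.96, and in LFD MTX50 3.83, 3.34, 2.15, 0.30 and 3.96. The HFD mice read 1.99, 2.52, 1.31 and 0.94, and the HFD MTX50 mice 2.05, 2.13, 2.37, 1.62 and 3.41. The LFD MTX50 mice therefore held both the highest and the lowest levels of all 18 mice, with mice 1, 2 and 5 above every LFD mouse and mouse 4 far below. Hmgcs1 split the same mice, at 4.88, 5.03 and 4.67 in LFD MTX50 mice 1, 2 and 5 and 3.04 and 2.79 in mice 3 and 4.

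The deviation of a mouse from its group mean, taken as the median over the 19 enzymes, summarises the pattern. In LFD MTX50 it was 0.75, 0.56, −0.66, −0.98 and 0.59 for mice 1 to 5, and 18, 18, 1, 2 and 15 of the 19 enzymes were above their group mean. Mice 1 to 4 of this group shared a slide, so that the opposite pairs stood on the same slide. In LFD the medians were −0.17, 0.00, 0.36 and −0.17, where mouse 3 was high in 17 of 19 enzymes.

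On the high-fat diet the deviations ran with the slide. HFD mice 1 and 2, on a slide of their own, were at 0.16 and 0.35, and HFD mice 3 and 4 on the shared slide were at −0.23 and −0.30. HFD MTX50 mice 1 and 2 on the shared slide were at −0.26 and −0.62, and mice 3 to 5 on another slide at 0.30, 0.06 and 0.44. Mouse and slide cannot be told apart in these groups. In HFD MTX50 the summed neutrophil markers of mice 1 to 5 were 0.23, 0.94, 2.37, 3.66 and 5.63, so they too were lower in the mice of the shared slide, whereas in LFD MTX50 they were 1.47, 2.79, 0.12, 2.78 and 0.45, with high and low values on either side of the split. Summed hepatocyte markers in LFD MTX50 were 8.44, 8.68, 8.81, 8.88 and 8.34, highest in mice 3 and 4, whose synthesis enzymes were low. This sum followed the bright Fabp1 and Cyp2e1 probes. Cps1, Hpd and Hal were instead highest in LFD MTX50 mouse 1 (3.95, 4.4 and 4.03) and Tat in mouse 5 (4.46). The part of these cells in the variation was not tested.

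**Figure D2:**
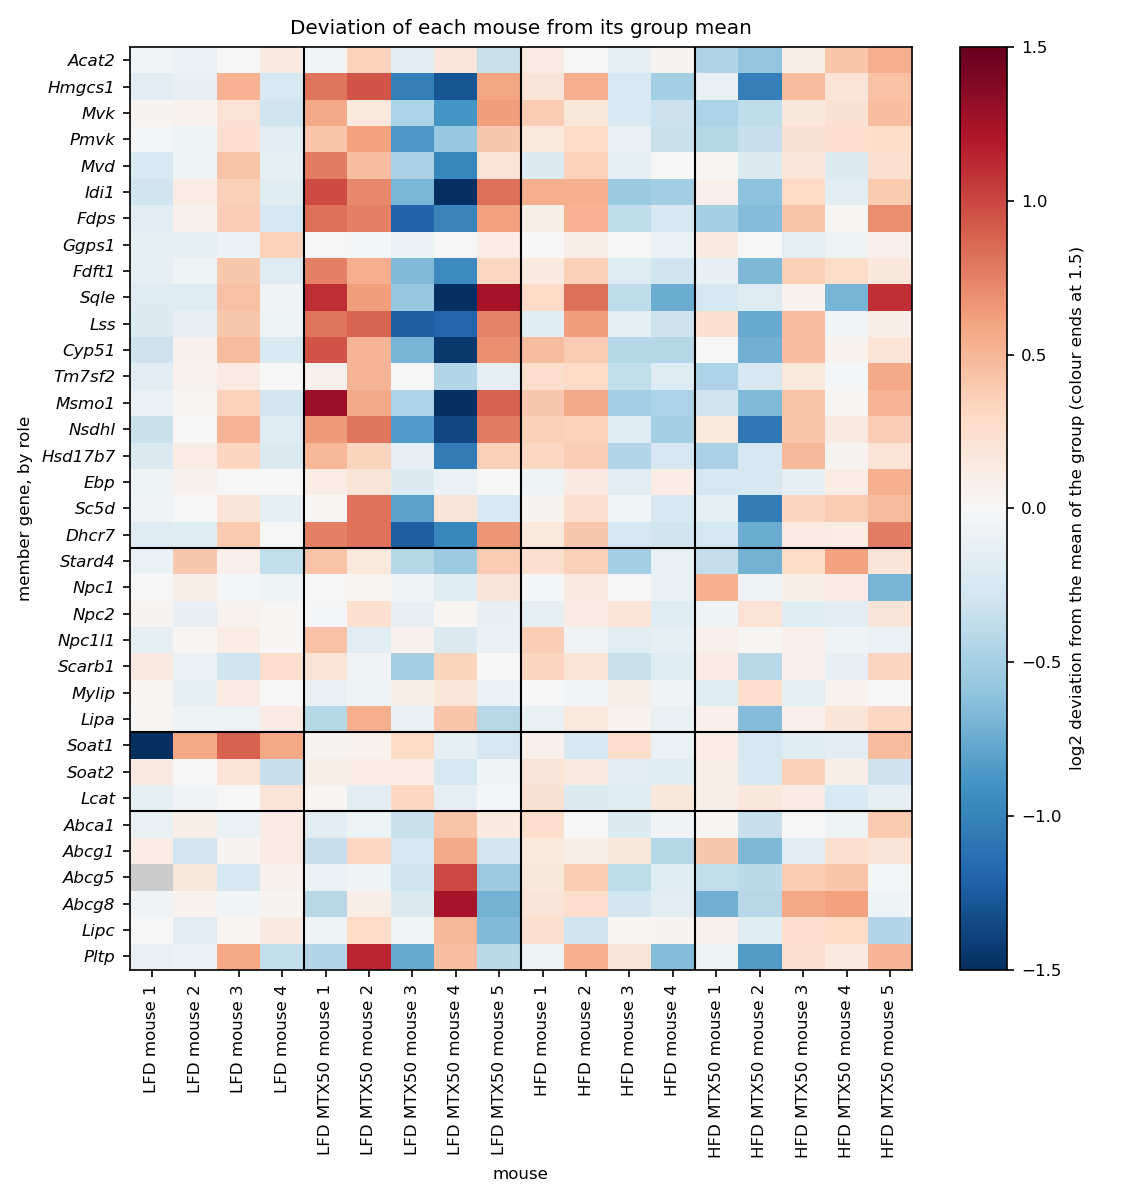
Deviation of each of the 18 mice (columns, by group) from its group mean in log2 level, for the 35 members (rows, by role, with Acat2 to Dhcr7 the synthesis enzymes). Columns of nearly uniform colour show enzymes that move together, as in LFD MTX50 mice 1 and 2 (red) and 3 and 4 (blue), while Ggps1 stays pale throughout.

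Across the 18 mice, with group means removed, the enzymes of synthesis were correlated with one another. The median over their 171 pairs was a Pearson r of 0.78 and a Spearman rho of 0.76, and 166 pairs were above 0, while the median over all pairs of 19412 named genes was 0.01. The median r was 0.74 without LFD MTX50 mice 4 and 1, the pair farthest from the centre, 0.81 in the 8 untreated mice, 0.78 in the 10 treated mice, and 0.74 for deviations within group and slide in 17 mice. The points share RNA, array and scaling, so these coefficients are a description. Single pairs reached r = 0.98 for Hmgcs1 with Fdft1 (rho 0.98) and for Idi1 with Cyp51 (rho 0.97).

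Not every enzyme followed. Against the median deviation of the other enzymes, 14 of the 19 had an r of 0.86 or more, and Hmgcs1 the highest at 0.98 (rho 0.95). Tm7sf2 (0.66), Ebp (0.55) and Sc5d (0.54) followed less closely, Acat2 weakly (r 0.28, rho 0.27) and Ggps1 hardly at all (r 0.07, rho 0.15). Without LFD MTX50 mice 4 and 1, r was 0.79 for Sc5d, 0.57 for Ebp, 0.49 for Acat2 and 0.08 for Ggps1. Acat2 and Ggps1 are the members at the entry and on the side branch of the route, and also the synthesis enzymes that were called between groups. Both also had a within-group SD (0.31 and 0.13) below the median of the synthesis enzymes (0.50). No link between these traits was tested.

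**Figure D3:**
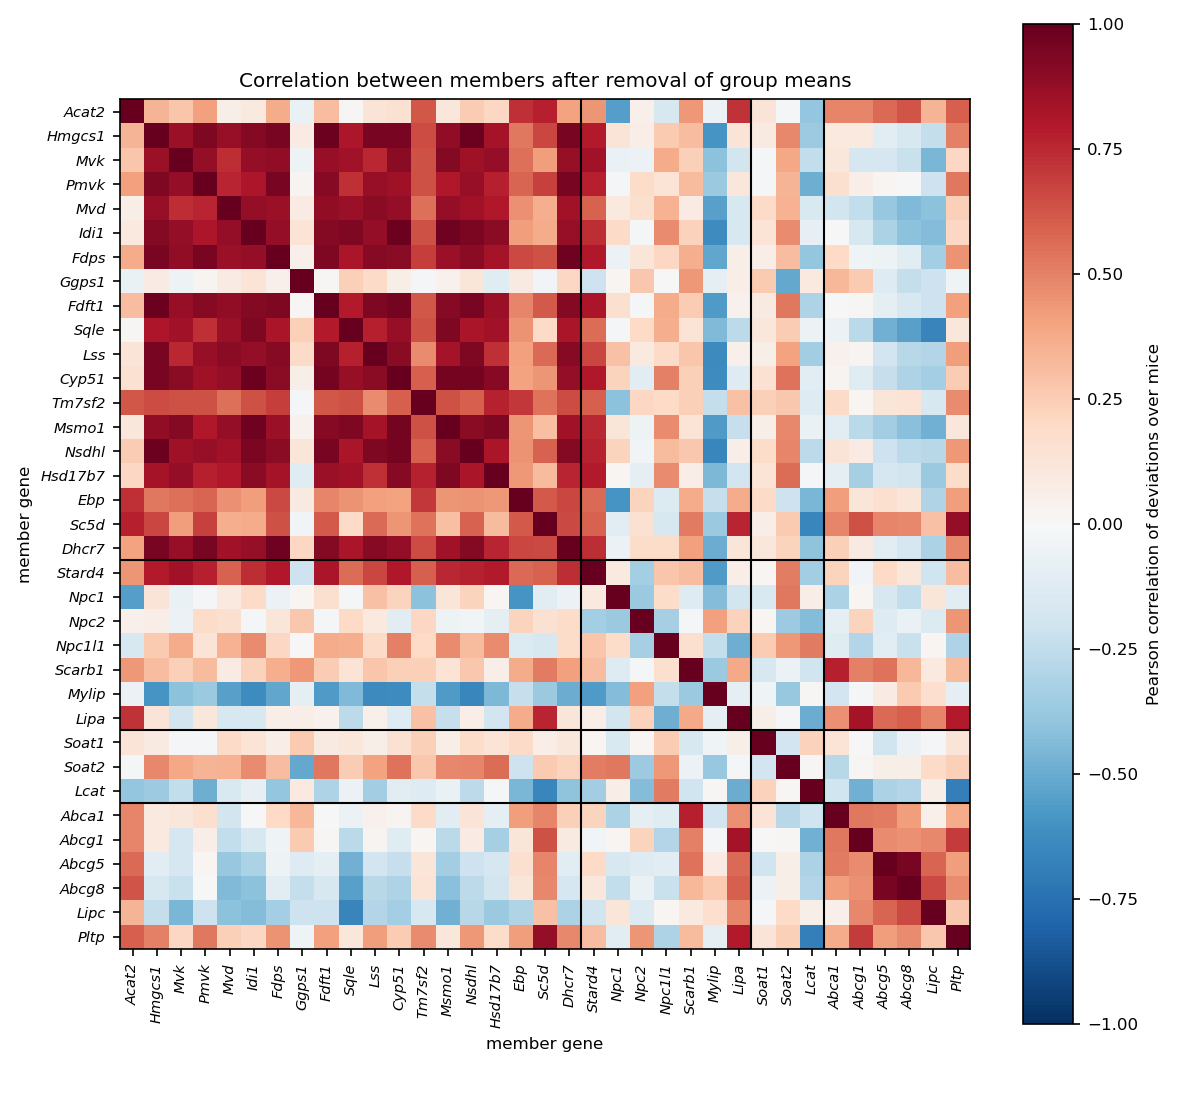
Pearson correlation of the deviations from group means between every pair of the 35 members over 18 mice (17 for Abcg5), in pathway order with lines between roles. The block of synthesis enzymes from Hmgcs1 to Dhcr7 is mostly red apart from the pale Ggps1 line, with paler squares for Tm7sf2, Ebp and Sc5d, Stard4 continues it into the uptake genes, and Mylip is blue against it.

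Promoter sequence was examined for members that moved together and for the pair that followed least. RefSeq promoter windows (build GRCm38.p6) were found for 27 of the 35 members, in 32 windows, and Fdps, Fdft1, Sqle, Stard4, Npc1, Scarb1, Soat2 and Abcg1 had none in the table used. Within the 250 bases before the gene start, both strands were searched for the sterol response element TCACNCCAC and for CCAAT, the letters of the box bound by NF-Y, and no match of the former overlapped with one of the latter. TCACNCCAC was in 1 of the 32 member windows, that of Hmgcs1, and in 1.05% of all 32851 windows. CCAAT was in 25 of the 32 member windows (78.1%) and in 15 of 19 windows of synthesis enzymes (78.9%), against 33.8% of all windows. The windows of Hmgcs1 (chr13:119690101-119690350, + strand), Idi1 (chr13:8885356-8885605, + strand) and Msmo1 (chr8:64733579-64733828, − strand) stand for enzymes that varied together (r 0.89 to 0.97 between them), and those of Ggps1 (chr13:14063489-14063738, − strand) and Acat2 (chr17:12960726-12960975, − strand) for the pair with the lowest r against the other enzymes. Each is written 5′ to 3′ on the strand of its gene, ends at the base before the start, and has the matched letters of either motif in capitals, where ATTGG is CCAAT read on the other strand.
Hmgcs1: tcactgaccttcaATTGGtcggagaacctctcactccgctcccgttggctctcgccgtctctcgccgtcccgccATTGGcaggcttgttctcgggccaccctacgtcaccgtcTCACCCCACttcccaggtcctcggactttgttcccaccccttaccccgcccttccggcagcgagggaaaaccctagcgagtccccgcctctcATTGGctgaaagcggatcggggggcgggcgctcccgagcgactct
Idi1: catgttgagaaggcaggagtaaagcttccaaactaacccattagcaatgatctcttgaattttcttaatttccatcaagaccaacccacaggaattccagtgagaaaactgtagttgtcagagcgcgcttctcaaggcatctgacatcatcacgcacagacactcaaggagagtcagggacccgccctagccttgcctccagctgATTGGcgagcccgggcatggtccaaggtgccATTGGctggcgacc
Msmo1: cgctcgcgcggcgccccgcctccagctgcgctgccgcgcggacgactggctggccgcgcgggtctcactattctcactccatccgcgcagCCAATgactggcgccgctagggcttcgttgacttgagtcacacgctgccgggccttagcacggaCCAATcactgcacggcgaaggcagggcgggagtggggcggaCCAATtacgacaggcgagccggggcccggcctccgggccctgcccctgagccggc
Ggps1: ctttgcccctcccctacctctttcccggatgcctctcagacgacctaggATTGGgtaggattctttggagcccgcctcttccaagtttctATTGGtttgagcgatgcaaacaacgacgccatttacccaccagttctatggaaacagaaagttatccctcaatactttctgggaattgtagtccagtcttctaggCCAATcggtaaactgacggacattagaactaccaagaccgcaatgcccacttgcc
Acat2: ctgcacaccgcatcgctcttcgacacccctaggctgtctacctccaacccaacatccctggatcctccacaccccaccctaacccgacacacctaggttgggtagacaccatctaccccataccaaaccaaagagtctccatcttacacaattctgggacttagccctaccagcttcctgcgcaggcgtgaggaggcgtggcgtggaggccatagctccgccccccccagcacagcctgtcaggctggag
The Hmgcs1 window held 3 CCAAT matches and the sterol response element 137 bases before the start. Idi1 held 2 matches and Msmo1 3. Ggps1, which did not follow the others, held 3 as well, and Acat2 held none. A match of letters is a description and not evidence of binding.

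Among the 7 genes of uptake and intracellular transport, Scarb1 and Npc2 were called lower by diet, Scarb1 rose in treated HFD-fed mice and Npc2 rose in treated LFD-fed mice. The median differences of the 7 were −0.19, −0.03 and 0.14, and the second of these was above 0 under normexp, quantile normalization and the scaling to always detected probes.

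Scarb1 encodes SR-BI, the receptor through which hepatocytes take cholesteryl ester from HDL. It read 3.74, 3.51, 3.32 and 3.87 in LFD and 3.26, 3.14, 2.59 and 2.73 in HFD. In LFD MTX50 it read 3.86, 3.59, 3.14, 3.97 and 3.64, and in HFD MTX50 3.69, 3.15, 3.64, 3.44 and 3.89. The untreated HFD mice lay below all LFD mice, and 4 of the 5 HFD MTX50 mice lay above all HFD mice, the exception being mouse 2. HFD vs LFD was −0.68 ± 0.20 (1.60-fold lower, limma adjusted p 0.0211, p by exact permutation 0.0286) and HFD MTX50 vs HFD 0.63 ± 0.19 (1.55-fold higher, limma adjusted p 0.0432, p by exact permutation 0.0238, shared-slide value 0.76). In LFD-fed mice the difference was 0.03 (−0.38 to 0.43, adjusted p 0.928), and the difference between the effects on the diets was 0.60 ± 0.27 (adjusted p 0.0998), so that a diet dependence was not called. The second probe gave −0.50 (adjusted p 0.0328) and 0.40 (adjusted p 0.0932). The diet call was lost without LFD mouse 4 or HFD mouse 3 or 4 (adjusted p 0.0632 to 0.081). The treatment call was kept in 5 of 14 other settings (adjusted p 0.0338 to 0.381) and was lost without LFD mouse 1 or 2, LFD MTX50 mouse 1 or 2, HFD mouse 2, 3 or 4, or HFD MTX50 mouse 1, 3, 4 or 5 (up to an adjusted p of 0.161 without HFD mouse 3).

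Npc2 and Npc1 hand cholesterol out of the lysosome, Npc2 as the soluble carrier and Npc1 as the membrane protein that receives it. Npc2 read 1.05, 0.89, 1.07 and 1.03 in LFD and 0.54, 0.80, 0.88 and 0.48 in HFD. In LFD MTX50 it read 1.33, 1.60, 1.23, 1.38 and 1.22, and in HFD MTX50 0.86, 1.13, 0.75, 0.76 and 1.12. The order from high to low was LFD MTX50, LFD and HFD without overlap, HFD mouse 3 coming close to LFD mouse 2, and HFD MTX50 spanned LFD and HFD. HFD vs LFD was −0.34 ± 0.12 (1.27-fold lower, limma adjusted p 0.0478) and LFD MTX50 vs LFD 0.34 ± 0.12 (1.26-fold higher, limma adjusted p 0.0404). Both stood close to the threshold. The former was kept in 6 of 13 other settings (adjusted p 0.0183 to 0.402) and lost without any LFD or HFD mouse, or LFD MTX50 mouse 1 or 4 (up to 0.149), and the latter was kept in 8 of 13 (0.0276 to 0.601) and lost without any LFD mouse or LFD MTX50 mouse 1, 2 or 4 (up to 0.112).

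Npc1 had a similar order that was not called with all 4 groups in 1 model. It read −0.99 to −0.82 in LFD, −0.70 to −0.32 in LFD MTX50 and −1.30 to −1.06 in HFD, without overlap, with differences of −0.27 ± 0.18 by diet (limma adjusted p 0.25) and 0.40 ± 0.17 in treated LFD-fed mice (adjusted p 0.0821). In HFD MTX50 it spread from −1.91 to −0.67, with an SD of 0.45 against 0.07 in LFD, 0.14 in LFD MTX50 and 0.10 in HFD. With only the groups compared in the fit, Npc1 was called lower by diet (limma adjusted p 0.0312) and higher in treated LFD-fed mice (adjusted p 0.0126). The methods' t-test called it in the same comparisons (adjusted p 0.024 and 0.0132).

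Npc1l1, the sterol importer of the apical membrane, read −3.04, −2.87, −2.79 and −2.88 in LFD and −2.25, −2.85, −2.61, −2.90 and −2.79 in LFD MTX50. In HFD it read −2.18, −2.60, −2.72 and −2.69, and in HFD MTX50 −2.83, −2.89, −2.82, −2.97 and −3.0. Every HFD mouse was above every LFD and HFD MTX50 mouse, while the LFD and LFD MTX50 mice overlapped. The methotrexate effect was −0.36 ± 0.13 on the high-fat diet (limma adjusted p 0.087) and 0.22 ± 0.13 on the low-fat diet (adjusted p 0.222), and the difference between the effects was −0.57 ± 0.19 (adjusted p 0.0346). This was the only called difference of effects among the members. It was kept in 7 of 11 other settings (adjusted p 0.0303 to 1.0), and was lost without LFD mouse 1, 2 or 4, LFD MTX50 mouse 3, HFD mouse 1, or HFD MTX50 mouse 4 or 5 (up to 0.0662). Its size dropped to −0.31 under normexp and −0.33 under quantile normalization.

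Stard4, a soluble sterol carrier, Mylip, the ubiquitin ligase that degrades lipoprotein receptors, and Lipa, the lysosomal acid lipase that frees cholesterol from its ester, were not called in any comparison. Stard4 ranged from 1.01 to 2.59 over all mice and followed the synthesis enzymes from mouse to mouse (r 0.81, rho 0.76, and r 0.77 without the 2 mice, n = 18). Mylip ran against them (r −0.56, rho −0.45, and −0.41 without the 2 mice) and kept within −0.63 to −0.16 over all mice. Lipa was at −0.37 in both methotrexate comparisons (limma adjusted p 0.242 on the high-fat and 0.183 on the low-fat diet), and HFD MTX50 mouse 2 was the only mouse below 0, at −0.20.

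**Figure D4:**
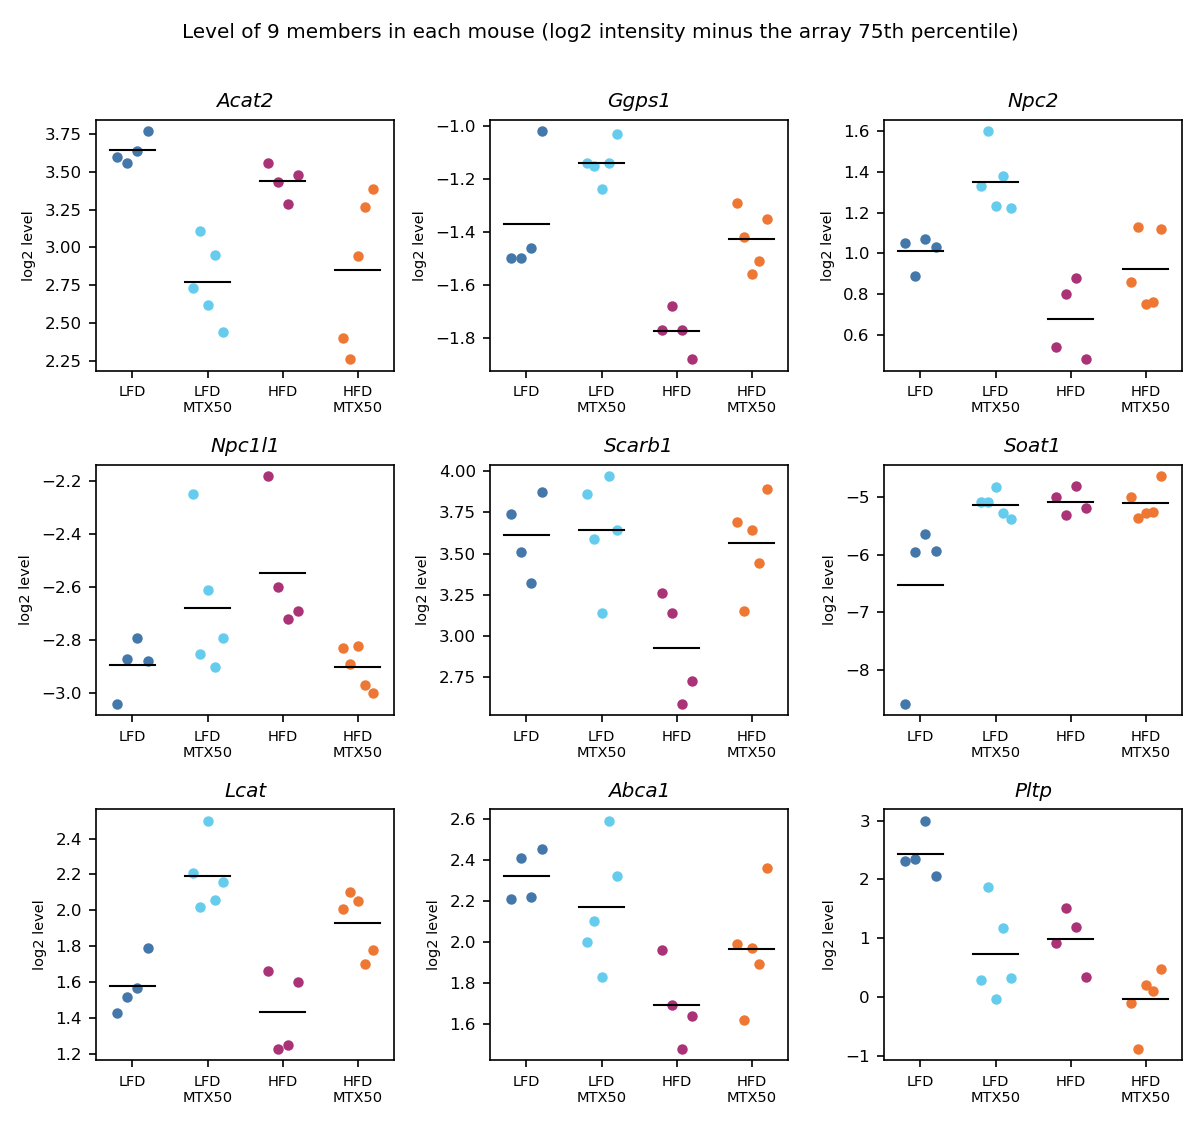
Log2 level in each mouse (points, with the group mean as a line) for the 9 members called in at least 1 comparison or for the difference of the methotrexate effects. The Acat2 and Pltp points of LFD MTX50 and the Lcat points of both treated groups sit apart from their untreated controls, and the single LFD point at −8.59 sets the scale for Soat1.

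The clearest change of the esterification genes was in Lcat, the plasma enzyme made by the liver that esterifies cholesterol on HDL. It read 1.43, 1.52, 1.57 and 1.79 in LFD and 2.21, 2.02, 2.50, 2.06 and 2.16 in LFD MTX50. In HFD it read 1.66, 1.23, 1.25 and 1.60, and in HFD MTX50 2.01, 2.10, 2.05, 1.70 and 1.78. Treated mice were above untreated mice without overlap on either diet, although HFD MTX50 mouse 4 and HFD mouse 1 were close. LFD MTX50 vs LFD was 0.61 ± 0.13 (1.53-fold higher, limma adjusted p 0.00496, p by exact permutation 0.00794) and HFD MTX50 vs HFD 0.50 ± 0.13 (1.41-fold higher, limma adjusted p 0.0272, p by exact permutation 0.0159, shared-slide value 0.63). The difference between these effects was −0.12 (−0.51 to 0.27, adjusted p 0.653), and diet alone gave −0.14 (−0.43 to 0.15, adjusted p 0.439). The call in LFD-fed mice was kept without any 1 mouse and in 11 of 13 other settings (0.00376 to 0.194). That on the high-fat diet was kept in 9 of 14 (0.0109 to 0.381), and lost without HFD mouse 2, 3 or 4 (0.072, 0.108 and 0.0602).

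Soat1 and Soat2 esterify cholesterol inside the cell, Soat2 being the form of hepatocytes and intestine and Soat1 that of macrophages and many other cells. The Soat1 probe was dim. It read −8.59, −5.95, −5.64 and −5.94 in LFD and −5.09, −5.08, −4.83, −5.28 and −5.38 in LFD MTX50. The HFD mice read −5.0, −5.31, −4.81 and −5.18, and the HFD MTX50 mice −5.0, −5.36, −5.28, −5.26 and −4.63. The LFD mice were the lowest and overlapped with no other group, and the probe was not well above background in LFD mouse 1, the 1 array of 18 where this was so. HFD vs LFD was 1.45 ± 0.44 (limma adjusted p 0.024) and LFD MTX50 vs LFD 1.40 ± 0.42 (adjusted p 0.0224), and without LFD mouse 1 these were 0.77 (adjusted p 0.0123) and 0.71 (adjusted p 0.0139). The former was kept in 7 of 12 other settings (0.00456 to 0.43) and lost without HFD mouse 3 or 4 (0.0732 and 0.0545), and the latter was kept in 7 of 12 (0.00335 to 0.194) and lost without LFD MTX50 mouse 3 (0.0513). Of the macrophage markers, Trem2 was likewise lowest in LFD, with mean levels of −3.47 in LFD, −2.27 in LFD MTX50, −2.44 for HFD and −2.17 for HFD MTX50, as was Gpnmb (−8.69, −5.26, −5.68 and −5.36), which was well above background on 9 arrays. The list as a whole did not share this order. By diet 7 of the 10 markers had a difference below 0 (median −0.12), 1 was called lower and 0 higher. Cd68 and Csf1r fell in LFD MTX50 vs LFD. The part of macrophages in the Soat1 differences was not tested. Soat2 was not called in any comparison, with differences between −0.27 and 0.16 and levels from 1.32 to 2.02.

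Of the 6 genes of export and lipoprotein remodelling, Pltp and Abca1 were called lower in HFD vs LFD, and Pltp fell in LFD MTX50 vs LFD. All 6 had a difference below 0 in HFD vs LFD (median −0.25, against 0.08 over all genes), as they did under quantile normalization, the scaling to always detected probes and the series value table, whereas under normexp 3 of the 6 did.

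Pltp, the phospholipid transfer protein that remodels HDL in plasma, had the largest difference of the 35 members in both treatment comparisons, and the second largest, after the dim Soat1, by diet. It read 2.31, 2.34, 3.00 and 2.05 in LFD and 0.29, 1.87, −0.03, 1.17 and 0.33 in LFD MTX50. In HFD it read 0.91, 1.52, 1.19 and 0.34, and in HFD MTX50 −0.11, −0.88, 0.20, 0.10 and 0.47. LFD mice were above all others, and of the HFD MTX50 mice only mouse 5 reached into the HFD range. LFD MTX50 vs LFD was −1.70 ± 0.36 (3.25-fold lower, limma adjusted p 0.00496, p by exact permutation 0.0159) and HFD vs LFD −1.44 ± 0.38 (2.71-fold lower, limma adjusted p 0.0138, p by exact permutation 0.0286). In HFD MTX50 vs HFD the value was −1.03 ± 0.36 (limma adjusted p 0.0697, p by exact permutation 0.0238, shared-slide value −1.26), which was not called. The difference between the methotrexate effects was 0.67 with an interval from −0.41 to 1.75. The call for LFD MTX50 was kept in 12 of 13 other settings (0.0035 to 0.0706) and without any 1 mouse, and that for HFD in 11 of 13 (0.00817 to 0.188), lost without HFD mouse 4 (−1.22, adjusted p 0.0532). From mouse to mouse Pltp ran with Sc5d (r 0.88, rho 0.86) and Lipa (r 0.79, rho 0.77), a pairing noted after the values had been seen.

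Abca1, the transporter that loads cholesterol onto apolipoprotein A-I, read 2.21, 2.41, 2.22 and 2.45 in LFD and 1.96, 1.69, 1.48 and 1.64 in HFD. In LFD MTX50 it read 2.00, 2.10, 1.83, 2.59 and 2.32, and in HFD MTX50 1.99, 1.62, 1.97, 1.89 and 2.36. The HFD mice were all below the LFD mice, and the treated groups overlapped with both. HFD vs LFD was −0.63 ± 0.17 (1.55-fold lower, limma adjusted p 0.0135, p by exact permutation 0.0286), kept in 11 of 13 other settings (0.00758 to 0.215) and lost without HFD mouse 3 (−0.56, adjusted p 0.0533). HFD MTX50 vs HFD was 0.27 (−0.06 to 0.61, adjusted p 0.242).

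Abcg1, which exports sterol to HDL, Lipc, the hepatic lipase, and Abcg5 and Abcg8, the partner transporters that secrete sterols into bile, were not called. Their differences lay between −0.26 (Abcg5, by diet) and 0.44 (Abcg1, in treated HFD-fed mice), and over all mice Abcg1 ranged from −1.38 to −0.11 and Lipc from −1.64 to −0.18. Abcg5 had no usable spot in LFD mouse 1, so its LFD mean rests on 3 mice. Abcg5 and Abcg8 varied together (r 0.95, rho 0.93, n = 17), and LFD MTX50 mouse 4, which had the lowest median deviation of synthesis enzymes, had the highest levels of both, at 2.85 for Abcg5 and −2.02 for Abcg8. The median r of export genes with synthesis enzymes was −0.04 over 18 mice (median rho 0.085) and 0.37 without LFD MTX50 mice 4 and 1. It was 0.40 in the 8 untreated mice and −0.22 for deviations within group and slide. Its sign thus depended on the mice, the coefficient and the treatment of slides. Abcg5 and Abcg8 are transcribed in opposite directions from neighbouring starts. The 109 bases between those starts (chr17:84683012-84683120, GRCm38.p6) are shown because they lie before both genes, and held neither motif. They are written on the + strand, on which Abcg8 lies. The Abcg8 window that covers them held 2 CCAAT matches farther out, 175 and 114 bases before its start. The window of Abcg5 and the other window of Abcg8 held neither motif.
Abcg5 and Abcg8: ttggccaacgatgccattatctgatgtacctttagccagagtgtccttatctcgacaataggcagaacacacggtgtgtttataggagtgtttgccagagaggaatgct

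For comparison, 20 regulators and neighbouring genes of the sterol pathway were read in the same fit. By diet 2 were called higher and 5 lower (35%), in treated HFD-fed mice limma called 0 (3 had an unadjusted p below 0.05), in treated LFD-fed mice 4 rose and 3 fell (35%), and the difference of the effects was called for 5. The shares over all genes are those given for the members. Insig2, which retains the SREBP2 escort in the endoplasmic reticulum, fell in LFD MTX50 (−1.33 ± 0.28, limma adjusted p 0.005), and Ch25h, which makes 25-hydroxycholesterol, rose (1.35 ± 0.34, adjusted p 0.0103). In HFD vs LFD the escort itself, Scap, fell (−0.67 ± 0.16, adjusted p 0.00806), as did the sterol carrier Stard5 (−0.47 ± 0.11, adjusted p 0.00857). Idi2, the paralog of Idi1, was higher by diet (0.64, adjusted p 0.0123) and its methotrexate effects differed between diets (−0.88, adjusted p 0.0118). Some were also set against the synthesis enzymes from mouse to mouse, chosen after their values were seen. Lbr (r 0.63, rho 0.78), Osbp (r 0.57, rho 0.64) and Insig1 (r 0.53, rho 0.52) ran with the synthesis enzymes, whereas the transcript of Srebf2 did not (r 0.02, rho −0.08). Cyp7a1, the rate-limiting enzyme of bile acid synthesis, had an r of 0.63 that dropped to 0.28 without LFD MTX50 mice 4 and 1.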

How the data were processed

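One-colour Agilent arrays of 18 livers were read. Per the file headers, the authors' scanner software, Agilent Feature Extraction 10.7.3.1, subtracted background and removed spatial trends within each array, and the deposited intensity was not scaled between arrays. From it, log2 of the processed intensity minus the 75th percentile of that array was computed here, without control and outlier spots, with spots of a probe averaged. The deposited series value table, a background-subtracted intensity, was an alternative. The 75th percentile lay between 1202.7 and 2263.0 and no spot was saturated, and the number of arrays limits the precision. Accessions on the array were matched to symbols for 28025 probes (71.1%).

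Probes well above background on at least 4 arrays (35746) were fitted with limma 3.58.1 (R 4.3.3), with all 4 groups in 1 model and Benjamini-Hochberg adjustment over all of them. The limma p-values set a difference against the spread between mice within groups. For LFD, whose arrays filled 1 slide, that spread holds no difference between slides. A single probe per gene, the brightest, was read. Exact permutation tests (scipy 1.17.1) were two-sided. Members called in any comparison are given in every mouse and the others, except Sqle, by ranges or group values. Of the comparison list at most 6 genes are given by adjusted p. Further genes of that list, set against the synthesis enzymes, were chosen after their values were seen. Members and lists were chosen with earlier results of these data known. The scripts were tested on simulated data. For normexp, the median spot intensity was used, where the mean had been planned, since the files used here hold only the former. Other alternatives were quantile normalization, scaling to always detected probes, other filters, the methods' t-test, only the groups compared, averaged probes, the slide or the replicate number as a block, and leaving out each mouse.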

Additional observations from a re-analysis of the deposited data

Results flagged for a closer look

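In 6 of the 140 sets of mice examined (35 members in 4 groups), the highest or lowest mouse was far from the rest, where chance gives about 1 in 20. The gap to the nearest mouse is given as a share of the range of the group. Hmgcs1 was high in LFD mouse 3 (4.54 against 3.78 to 3.89, a gap of 0.854), and Ggps1 was high in LFD mouse 4 (−1.02 against −1.5 to −1.46, a gap of 0.917). HFD MTX50 mouse 2 was low in Nsdhl (−1.57 against −0.38 to −0.10, a gap of 0.81) and in Lipa (−0.20 against 0.53 to 0.76, a gap of 0.753). Soat1 was low in LFD mouse 1 (−8.59 against −5.95 to −5.64, a gap of 0.896), where its probe was not well above background. Abcg1 was low in HFD mouse 4 (−1.38 against −0.87 to −0.79, a gap of 0.859).

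The methotrexate effect on Npc1l1 differed between the diets, by −0.573 on the log2 scale with a limma adjusted p of 0.0346.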

How the results depend on the processing

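Of the 6 members called by diet, 0 remained under normexp background correction and 0 with slides as random effects, 3 under quantile normalization, and fitting only the groups compared gave 10. For treated HFD-fed mice the 3 calls became 0 under normexp, with only the groups compared, under the methods' t-test and with the replicate block, and 1 with slides as fixed effects (Acat2) or with the mean of a gene's probes (Lcat). For treated LFD-fed mice the 5 became 2 under normexp (Pltp and Acat2) and 0 with slides as random effects. The single called difference of the methotrexate effects became 0 under normexp, the scaling to always detected probes and slides as random effects, and 2 with the series value table, the filter on all arrays or the mean of a gene's probes. Normexp turned the diet difference of Ggps1 from −0.40 to 0.001, and moved the median of all genes by diet from 0.08 to 0.38. Under quantile normalization the single called difference of effects was that of Ebp in place of Npc1l1. The cause was not tested.

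Leaving out 1 mouse gave 1 to 6 calls by diet (2 without HFD mouse 3 and 1 without HFD mouse 4). It gave 0 to 4 in treated HFD-fed mice (0 without HFD mouse 2, 3 or 4 and 1 without HFD MTX50 mouse 1), and 4 to 6 in treated LFD-fed mice. The difference of effects had 0 to 3 (0 without LFD mouse 2 or 4, HFD mouse 1 or HFD MTX50 mouse 4).

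Of 25 pairs of mice with the same replicate number, 6 had deviations that correlated above 0.1 (range −0.313 to 0.254). Pairs with different numbers were not set beside them, so this cannot decide whether the numbers pair the mice. With the number as a replicate block, 5 members were called by diet, 0 in treated HFD-fed mice, 4 in treated LFD-fed mice and 1 for the difference of effects. Among the members described in full, only the Soat1 probe was not well above background on every array. Calls of other members, such as Ggps1, Scarb1 and Abca1, were also lost under normexp, so the handling of background limits more than Soat1.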
